A study of Macaca mulatta with 30 samples.

Results

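Lung and hippocampus RNA from the same 3 saline-treated rhesus macaque fetuses was compared, to find which genes and functions each fetal tissue expressed and the other nearly lacked. The animals were 15-92, 15-101 and 16-113, wild type by the lung labels, and their 6 libraries are those of 30 in the series that came from untreated animals with both tissues sequenced. The mothers had received intramuscular saline, labelled for hippocampus as 1 mL given 5 days before delivery. The hippocampus labels give gestational ages of 133, 131 and 135 days, and the lung labels give a range of 124 to 130 days for all animals, so the ages stated for 1 animal differ between its tissues. Lung came from frozen pieces of a lower lobe and hippocampus from frozen pieces of that region, so both are mixtures of cell types, and a lower value can mean fewer cells of a type or less RNA per cell, which cannot be told apart in bulk tissue. Counts of reads per gene were deposited in 1 table for each tissue, and the comparison covers the 20572 gene identifiers present in both tables, of 30246 in the lung and 32386 in the hippocampus table. Of these, 14424 had at least 7 reads in at least 3 of the 6 libraries and were tested, and 12452 of those tested had a gene symbol.

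In late gestation the lung builds thin-walled air sacs. Alveolar type 2 cells make surfactant, the lipid and protein film that keeps the air spaces open, flat alveolar type 1 cells form the gas exchange surface beside a dense capillary bed, and fibroblasts and smooth muscle lay down the elastic and collagen scaffold. The hippocampus, a fold of the temporal cortex that stores new memories, then holds excitatory pyramidal and granule neurons, inhibitory interneurons that migrated in from the ventral forebrain, maturing astrocytes and the first myelinating oligodendrocytes.

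Tissue and count table went together in every library, and genes that every cell uses show how far. The lung libraries held 14.4 to 19.6 M reads on genes and the hippocampus libraries 18.3 to 25.9 M, of which 91 to 92.6% fell on shared identifiers. The tables were made with different aligners and identifier sets, and lung was prepared with standard Illumina protocols and hippocampus after polyA selection. Of 113 proteasome, chaperonin, translation initiation and RNA polymerase II or Mediator genes, 45 were called higher in lung and 22 higher in hippocampus, with a median log2 fold change of 0.34, and 0 differed by 32-fold or more. Of 61 ribosomal protein identifiers, by contrast, 58 were called higher in lung, with a median log2 fold change of 4.68, and 25 passed 32-fold. RPL19, of the large ribosomal subunit, read 628, 512 and 419.8 counts scaled to library size (CPM) in the lung of 15-92, 15-101 and 16-113 and 1.12, 1.29 and 1.28 CPM in their hippocampus, and the translation elongation factor EEF1A1 read 10330, 9038 and 9287 CPM against 75.8, 54.5 and 95.6 CPM. Among identifiers with 1000 reads or more over the 15 libraries of one table, 45 had no read in any hippocampus library and 105 had none in any lung library. Some belong to widely expressed genes. The tumour suppressor TSC1 and the zinc finger gene WIZ had no hippocampus read, the mitochondrial thioredoxin TXN2 had no lung read, and of 2 identifiers for MAGED1, 1 had no hippocampus read while the other was at 538, 464 and 489 CPM there. A very low level in one tissue, 0 included, may therefore belong to the table, the preparation or the tissue. For a single gene these cannot be told apart. ACTB and GAPDH, a cytoskeletal actin and a glycolytic enzyme, were not called, at 1.3-fold and 1.31-fold.

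The tissues differed in most of the genes tested. Spearman correlations across the tested genes were 0.984 to 0.989 between libraries of one tissue and 0.515 to 0.535 between tissues, which describes the libraries across genes that are not independent. With edgeR's quasi-likelihood test and the animal as a block, calls required a difference of 1.5 times or more, an unadjusted p below 0.05 and a Benjamini-Hochberg adjusted p below 0.1. By that rule 10272 genes (71.2% of those tested) differed, 4867 higher in lung (33.7%) and 5405 higher in hippocampus (37.5%). For 11940 genes (82.8%) the 3 libraries of one tissue all lay above the 3 of the other. Genes called tissue-restricted in what follows were called, did not overlap, and differed at least 32-fold, with a tissue at 3 reads or fewer in all set to a floor of 3 reads. There were 597 for lung (4.14%) and 1168 for hippocampus (8.10%). The number on each side depends on what is held level. Refitted with the median of the every-cell families other than ribosomal proteins set to 0, 4018 genes were called higher in lung and 6421 higher in hippocampus, and with ribosomal proteins included 2907 and 8370. The share of calls higher in lung was 47.4% as normalized, 38.5% in the first refit and 25.8% in the second. Values for 3 libraries are given below in the order 15-92, 15-101 and 16-113, in CPM after trimmed-mean normalization, and log2 fold changes are lung over hippocampus with their standard error.

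Surfactant proteins led the lung side. SFTPC, the hydrophobic surfactant protein made only by type 2 cells, was at 2845, 2869 and 5408 CPM in lung and 0.118, 0.508 and 0 CPM in hippocampus. SFTPB, which spreads the surfactant film, was at 3362, 3279 and 4005 CPM against 0.059, 0.185 and 0.0474 CPM, 33200-fold higher in lung (adjusted p = 2.51e-06). SFTPD, a collectin of innate defence, had 1 hippocampus read in all against 1021, 873 and 1551 CPM, 70700-fold (95% counting interval 12700 to 2790000) higher. Each lung library stood far above every hippocampus library for all of these. Of the other type 2 genes, the aspartic protease NAPSA that processes surfactant proprotein was 220-fold higher, the phosphate transporter SLC34A2 1020-fold, and LAMP3 of the lamellar bodies 136-fold. In all, 11 of the 14 type 2 genes tested were called higher in lung and 2 higher in hippocampus, with a median log2 fold change of 4.84 against -0.06 over all genes. Summed over the list, lung libraries held 9502 to 14530 CPM and hippocampus libraries 792 to 897 CPM. The members on the hippocampus side were ABCA3, the lipid pump of lamellar bodies, at 208.9, 202 and 224 CPM in lung and 377, 372 and 299 CPM in hippocampus, and the transcription factor ETV5, 2.94-fold higher there. Over all 9 animals with both tissues, of which 6 had mothers given a corticosteroid, ABCA3 was at -0.11 on the log2 scale and lost its call. LPCAT1, which remodels surfactant lipid, was at 298, 285 and 312 CPM in lung and 277, 318 and 266 CPM in hippocampus and was not called.

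**Figure D1:**
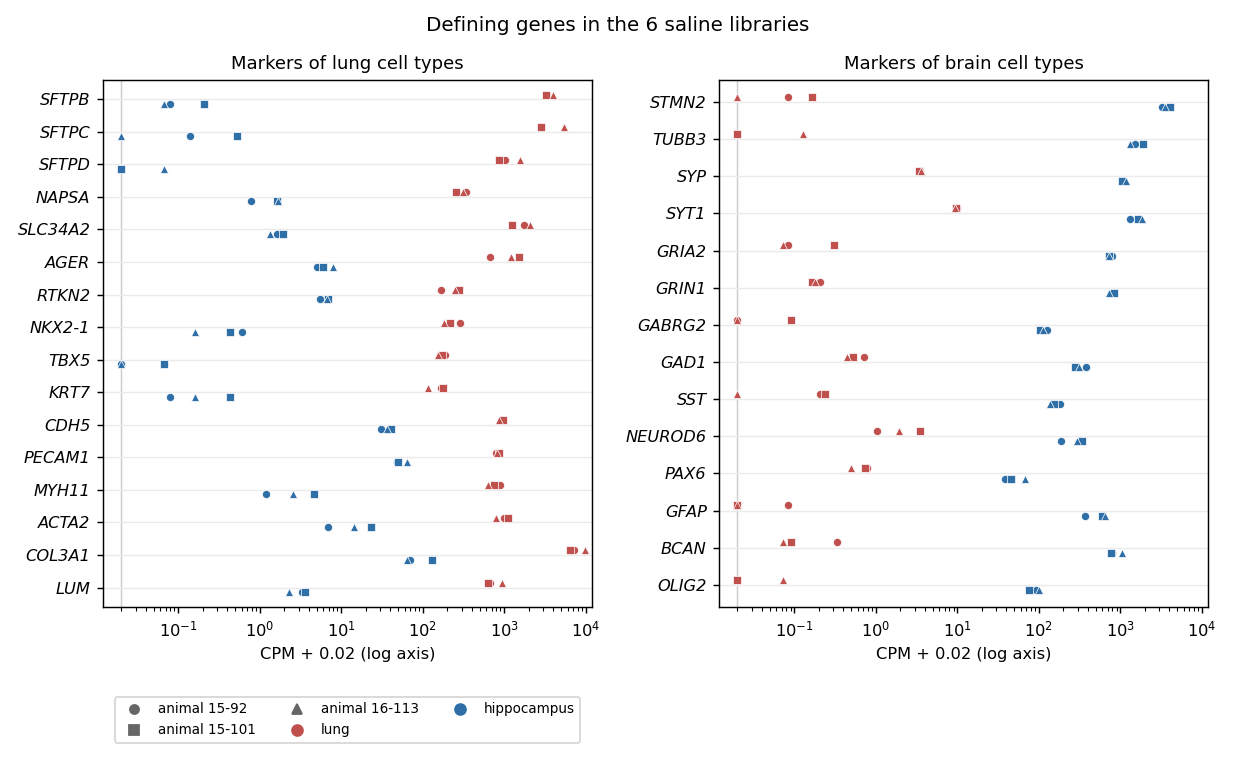
Each point is 1 library, with CPM plus 0.02 on a log axis; colour gives the tissue, shape the animal, and the grey line marks a level of 0. The genes drawn were chosen from the lists, and members that did not separate this way, such as ABCA3, ETV5, PDGFRA, THY1 and NES, are not shown. For the genes chosen, the 3 lung points lie above the 3 hippocampus points in the left panel, from SFTPB at 3279 to 4005 CPM in lung to LUM at 634 to 943 CPM. The order is reversed in the right panel, where STMN2 reached 3283 to 4038 CPM in hippocampus.

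Genes of the flat type 1 cell differed as widely. The pattern receptor AGER, which type 1 cells carry at high density, read 675, 1528 and 1225 CPM in lung and 5.01, 6.01 and 7.86 CPM in hippocampus, 176-fold higher, a log2 fold change of 7.46 ± 0.25 (SE, n = 3 animals, adjusted p = 3.95e-06). Caveolin CAV1 was 131-fold higher, RTKN2 35.9-fold and the type IV collagen chain COL4A3 of the alveolar basement membrane 79.6-fold. VEGFA, the endothelial growth factor that type 1 cells secrete, was at 1932, 2054 and 1804 CPM against 143, 202 and 190 CPM. The tight junction gene CLDN18 read 78.6, 55.8 and 93.5 CPM in lung and had no read in any hippocampus library, at least 1550-fold higher. In this list 9 of 11 genes were called higher in lung and 0 higher in hippocampus, with a median of 5.16. The exceptions also mark glia or meninges in brain. Podoplanin PDPN was at 33.3, 23.1 and 31.4 CPM in lung and 29.4, 30.1 and 33.4 CPM in hippocampus, and HOPX, a homeobox cofactor that outer radial glia share, at 238.2, 185 and 191 CPM in lung and 129, 157 and 181 CPM in hippocampus.

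Most regulators that specify lung were higher there, and 5 of the 9 tested were restricted to it. NKX2-1, the first factor of the lung field, was at 290.3, 214 and 183 CPM in lung and 0.59, 0.416 and 0.142 CPM in hippocampus, 604-fold higher. Its log2 fold change was 9.24 ± 0.22 (SE, n = 3 animals, adjusted p = 2.49e-06). TBX5, of the lung mesenchyme, had 1 hippocampus read against 186, 171 and 153 CPM in lung. FOXA2, an endoderm factor, had none against 49, 33.7 and 31.2 CPM, at least 752-fold higher, and GATA6 was 278-fold higher. Of the 9, 7 were called higher in lung. The list still summed to 155 to 264 CPM in hippocampus, against 1137 to 1379 CPM in lung, since FOXP1, ID2 and FOXF2 were present in both tissues, and FOXP2, which cortical neurons also use, was 2.36-fold higher in hippocampus. Of 17 genes of epithelial junctions and keratins, 16 were called higher in lung and 0 in hippocampus (median 6.04, or 6.25 with bounds), and the last, AP1M2, was not called at 4.37, 4.53 and 4.42 CPM in lung and 1.06, 7.07 and 2.13 CPM in hippocampus, and was called higher in lung without 15-101 (log2 1.53). The keratins KRT7 and KRT18 were 693-fold and 653-fold higher, the adhesion protein EPCAM 96.7-fold and E-cadherin CDH1 22.6-fold. The claudin CLDN7 had 3 hippocampus reads, and the small GTPase RAB25 had none against 32.7, 23.9 and 33.3 CPM.

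Airway genes had members on both sides. The secretoglobins of club cells were higher in lung, SCGB1A1 at 27.8, 127 and 2.82 CPM and no read in hippocampus, and SCGB3A2 at 43.9, 32.8 and 49.96 CPM against 0, 0.0462 and 0.379 CPM. Genes of motile cilia went the other way. HYDIN, of the ciliary central pair, was 51.2-fold higher in hippocampus, the dynein arm DNAH5 7.33-fold, RSPH1 of the radial spokes 6.91-fold and FOXJ1, the switch for ciliated cells, 1.68-fold. Ependymal cells that line the brain ventricles carry the same cilia. The call of FOXJ1 was lost without 15-101 (log2 -0.79, adjusted p = 0.0843 by edgeR) and without 16-113 (log2 -0.39, adjusted p = 0.0902). The FOXJ1 call was also lost over all 9 animals with both tissues, corticosteroid-treated ones included (log2 -0.51). That of RSPH1 was lost without 15-92 (log2 -2.27, adjusted p = 0.0938) and without 16-113 (log2 -1.79, adjusted p = 0.073). Over the 10 airway genes tested 4 were called in each direction, near the 33.7% and 37.5% of all genes tested. Their median of 0.15 was -0.79 among genes with reads in every library. It was -0.19 with the every-cell families other than ribosomal proteins set to 0 and -0.78 with ribosomal proteins included.

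The vascular bed of the lung was visible in nearly every endothelial gene. PECAM1, an adhesion molecule of endothelial junctions, was at 788, 858 and 826 CPM in lung and 48, 49.7 and 64.8 CPM in hippocampus, a log2 fold change of 3.94 ± 0.14 (SE, n = 3 animals, adjusted p = 4.99e-06). The junctional cadherin CDH5 was 25.5-fold higher, the VEGF receptor KDR 10.2-fold and the angiopoietin receptor TIE1 20.8-fold. CA4, the carbonic anhydrase on lung capillaries, had 1 hippocampus read against 190.1, 194 and 138 CPM. Of 19 endothelial genes, 17 were called higher in lung, with a median of 3.41 and summed levels of 6150 to 6855 CPM in lung against 628 to 916 CPM. FLT1, the decoy VEGF receptor, was not called, at 42.1, 66 and 65.5 CPM in lung and 46.7, 54.3 and 65.2 CPM in hippocampus. PROX1, which marks lymphatic endothelium in lung and granule neurons in hippocampus, was 21.2-fold higher in hippocampus. Genes that act on vessels showed the same side in 15 of 18. ACE, the angiotensin-converting enzyme of pulmonary endothelium, read 2584, 2585 and 2073 CPM against 40.5, 34.5 and 31.8 CPM, 67.8-fold higher, and HPGD, which breaks down prostaglandins, 115-fold higher. Of the nitric oxide synthases, endothelial NOS3 was 3.97-fold higher in lung and neuronal NOS1 26-fold higher in hippocampus.

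Matrix and contractile genes made up a further part of the lung side. COL3A1, a fibrillar collagen of the interstitium, reached 7282, 6343 and 9786 CPM in lung and 69.2, 130.6 and 64.5 CPM in hippocampus, 92.1-fold higher. Its log2 fold change was 6.52 ± 0.42 (SE, n = 3 animals, adjusted p = 3.7e-05). The proteoglycan LUM was 244-fold higher, COL6A3 181-fold and the elastic fibre protein FBLN5 29-fold. Of 19 fibroblast and matrix genes, 16 were called higher in lung (median 3.68). PDGFRA, which lung fibroblasts share with oligodendrocyte precursors, was at 58.1, 54.2 and 55 CPM in lung and 336, 271 and 333 CPM in hippocampus, 5.6-fold higher in hippocampus, as was MFAP5 by 9.17-fold. Smooth muscle gave 13 of 13 genes higher in lung (median 5.07). The smooth muscle myosin MYH11 was at 893, 748 and 636 CPM against 1.18, 4.57 and 2.51 CPM, and ACTA2, its actin partner, was 71.2-fold higher. By family, 24 of 35 collagens, 9 of 10 laminins and 19 of 28 integrins were called higher in lung. The collagens on the hippocampus side numbered 6, led by COL25A1, a neuronal transmembrane collagen, 59.4-fold higher. Integrin beta chains split, ITGB6 of epithelium at 398, 288 and 268 CPM in lung against 0.059, 0.0924 and 0.0947 CPM, and ITGB8, 20.3-fold higher in hippocampus.

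Blood and immune genes were mostly higher in lung, without a uniform shift in macrophage genes. All 11 T and B lymphocyte genes tested were called higher in lung (median 4.22), among them the interleukin-7 receptor IL7R at 48, 41 and 54.8 CPM against 4.07, 2.12 and 3.93 CPM. CD3E, of the T cell receptor complex, was 3.51-fold higher, a call lost without 15-92 (log2 1.61, adjusted p = 0.0705) and without 15-101 (log2 1.3, adjusted p = 0.0888). The call was also lost in the refit to every-cell genes with ribosomal proteins (log2 0.88). All 12 genes of antigen presentation and interferon response were called higher in lung (median 3.67). The class II chaperone CD74 read 94.9, 99 and 67.4 CPM in lung and 1.06, 2.17 and 1.18 CPM in hippocampus, a log2 fold change of 5.88 ± 0.21 (SE, n = 3 animals, adjusted p = 4.6e-06), and the immunoproteasome subunit PSMB8 was 26.9-fold higher. Of complement genes 9 of 12 were higher in lung, and of Toll-like receptors 7 of 10. In the macrophage list 6 of 12 were called higher in lung and 3 in hippocampus, with a median of 0.75, which was 0.41 with the every-cell families other than ribosomal proteins set to 0 and -0.18 with ribosomal proteins included. The monocyte coreceptor CD14 was 5.6-fold higher in lung, the scavenger receptor CD163 2.12-fold higher in hippocampus, and the receptor CSF1R, which macrophages and microglia both need, was not called, at 56.7, 23.9 and 37.3 CPM in lung and 43.7, 26.4 and 47.8 CPM in hippocampus. Red cell genes were higher in lung in 6 of 7, and the list summed to 51.8 to 449 CPM in lung and 33.7 to 79 CPM in hippocampus. Haemoglobin alpha HBA was not called, at 2.5, 345 and 149 CPM in lung and 32.2, 71.3 and 37.2 CPM in hippocampus, and was called higher in lung without 15-92 (log2 2.17, adjusted p = 3.12e-05).

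Ion transport genes divided between the tissues. The 3 subunits of the epithelial sodium channel, which draws fluid out of the air spaces at birth, were all far higher in lung. SCNN1A read 214, 139 and 134 CPM against 1.3, 0.832 and 0.568 CPM, a log2 fold change of 7.51 ± 0.15 (SE, n = 3 animals, adjusted p = 2.44e-06), SCNN1B was 327-fold and SCNN1G 206-fold higher. Aquaporin AQP4, the water channel of astrocyte endfeet, was at 53.4, 69.6 and 72.8 CPM in lung and a mean of 665 CPM in hippocampus, a log2 fold change of -3.31 ± 0.18 (SE, n = 3 animals, adjusted p = 1.85e-05). The sodium pump subunit ATP1B1 was 4.98-fold higher in hippocampus. Of 13 genes 6 were called higher in lung and 5 in hippocampus, against 33.7% and 37.5% of all genes tested. The median of 0.33 was -0.01 with the every-cell families other than ribosomal proteins set to 0 and -0.6 with ribosomal proteins included. Signals that pattern the airway were called higher in lung in 9 of 15. BMP4, a growth factor of the distal bud, was 27.1-fold higher, FGF7 from mesenchyme 11.3-fold and the Hedgehog target GLI1 10.9-fold. WNT7B was 12-fold and FGF9 6.46-fold higher in hippocampus, although both also act in lung epithelium.

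Neuronal genes led the hippocampus side, and their lung levels were close to 0. STMN2, a microtubule regulator of growing axons, was at 3283, 4038 and 3493 CPM in hippocampus and 0.0625, 0.144 and 0 CPM in lung, with 3 lung reads in all. TUBB3, the neuronal beta tubulin, was at 1517, 1915 and 1334 CPM against 0, 0 and 0.106 CPM, 38900-fold (95% counting interval 10800 to 321000) higher. DCX, the microtubule protein of migrating neurons, read 142, 109 and 80.9 CPM and had no lung read. The synaptic SNARE protein SNAP25 was at 969, 1252 and 1563 CPM against 4.06, 3.96 and 2.45 CPM, 359-fold higher, a log2 fold change of -8.49 ± 0.34 (SE, n = 3 animals, adjusted p = 6.38e-06). Of 25 pan-neuronal genes, 24 were called higher in hippocampus and 23 were restricted to it, with a median of -9.22 against -0.06 over all genes. THY1, which fibroblasts and T cells also carry, was not called at 282, 251 and 298 CPM in lung and 354, 345 and 443 CPM in hippocampus, and it made up most of the list's summed lung level of 409.9 to 435 CPM.

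Both sides of the synapse were higher in hippocampus with few exceptions. The calcium sensor SYT1 was 164-fold higher, the vesicle glycoprotein SV2B 1410-fold and the active zone scaffold BSN 164-fold. SNCB, a synuclein of nerve terminals, read 267, 249.9 and 232 CPM and had no lung read. In the vesicle and SNARE list 18 of 20 were called higher in hippocampus. RIMS1, an active zone protein, went the other way, with no read in hippocampus against 5.56, 2.37 and 2.45 CPM in lung. Among postsynaptic genes 14 of 18 were higher in hippocampus, led by the kinase subunit CAMK2B at 908, 1030 and 970.5 CPM against 0.437, 0.432 and 0.266 CPM. CAMK2A was 376-fold higher and the density scaffold DLG4 9.51-fold. DLGAP1 and SHANK3 were called higher in lung, by 36.3-fold and 1.66-fold. The difference in SHANK3 was under 1.5-fold in both refits to every-cell genes, at log2 0.4 without ribosomal proteins and -0.2 with them.

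Receptors for the main transmitters were called higher in hippocampus almost without exception. All 23 glutamate receptor genes tested were called, with log2 fold changes from -12.91 to -1.53, and 18 were restricted. GRIA2, the AMPA receptor subunit that limits calcium entry, was at 797, 735 and 722 CPM against 0.0625, 0.288 and 0.0533 CPM, 5730-fold higher. Its log2 fold change was -12.48 ± 0.31 (SE, n = 3 animals, adjusted p = 2.52e-06). GRIN1, the obligatory NMDA receptor subunit, was at 768, 832 and 724 CPM against 0.188, 0.144 and 0.16 CPM. The smallest difference was that of the kainate receptor GRIK5, 2.88-fold, with 72.9, 84.6 and 62 CPM in lung. For GABA and glycine receptors 16 of 18 were higher in hippocampus (median -8.59, or -7.48 with genes at no lung read set to their bound), and GABRA2, GABRA3 and GABRG1 had no lung read. The subunits GABRE and GABRP, both known outside the brain, were higher in lung, GABRE at 56.4, 28.4 and 18.6 CPM against 18.6, 3.05 and 3.88 CPM. Interneuron genes were all 14 higher in hippocampus (median -9.72, or -8.92 with bounds). The enzyme GAD1, which makes GABA, was 595-fold higher, somatostatin SST 1200-fold, and the vesicular GABA carrier SLC32A1 had no lung read against 79.4, 67.4 and 64.8 CPM. LHX6, an interneuron factor, was 2.12-fold higher, with 29.3, 32.5 and 27.5 CPM in lung.

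**Figure D2:**
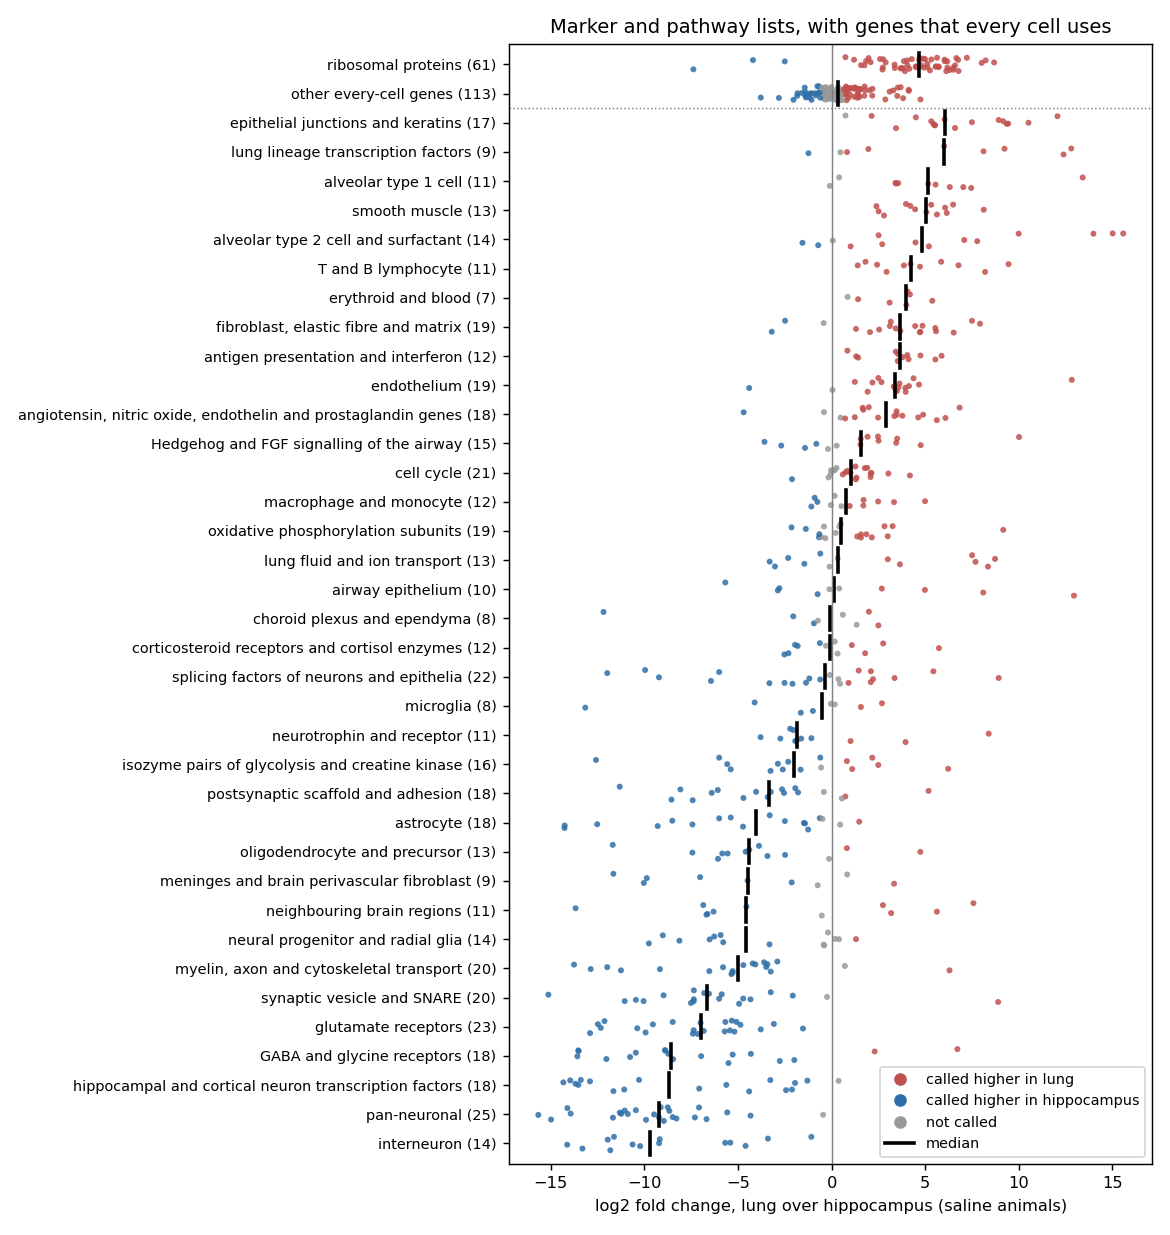
Each point is a gene at its log2 fold change, lung over hippocampus, in the list named at the left with its number of genes tested, and black bars are medians. Lung lists lie to the right up to a median of 6.04, brain lists to the left down to -9.72, and the 2 rows at the top show every-cell genes, with a median of 4.68 for ribosomal proteins and 0.34 for the other families.

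Transcription factors of forebrain neurons were nearly all higher in hippocampus. LHX2, needed to form the hippocampal field, read 106, 112 and 114 CPM in hippocampus, and NEUROD1 of newborn granule neurons 50.3, 70.9 and 98.2 CPM, both without a lung read. NEUROD6, of pyramidal neurons, was at 188, 340 and 292 CPM against 1, 3.45 and 1.92 CPM, a log2 fold change of -7.07 ± 0.20 (SE, n = 3 animals, adjusted p = 2.98e-06). In this list 17 of 18 were called higher in hippocampus (median -8.68, or -7.5 with bounds), and MEIS2, which lung also uses, was not, at 97.9, 106 and 103 CPM in lung and 83, 93.3 and 63.7 CPM in hippocampus. ZBTB20, of the CA1 field, was low in both, at 0.648, 2.17 and 1.85 CPM in hippocampus, and its call was lost without the animal block (log2 -1.72, adjusted p = 0.0858), with all 5 hippocampus controls (log2 -1.55, adjusted p = 0.0786) and without 16-113 (log2 -1.48, adjusted p = 0.113). Among factor families, all 5 ZIC genes were higher in hippocampus. All 4 HOX genes tested, which pattern the trunk, had no hippocampus read, and 8 others had too few reads to test. T-box genes split, TBX5 and TBX3 on the lung side and TBR1 of cortical neurons, at 65.8, 63.2 and 35 CPM, on the hippocampus side. Progenitor genes were less uniform, 8 of 14 higher in hippocampus. PTPRZ1 of radial glia was 868-fold and PAX6 77.3-fold higher. Nestin NES was not called, at 151, 134 and 130.8 CPM in lung and 136.5, 208.8 and 210 CPM in hippocampus. Without 15-92 NES was called higher in hippocampus (log2 -0.63). Vimentin VIM was 2.47-fold higher in lung, and not called in the refit to every-cell genes with ribosomal proteins (log2 0.37).

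Astrocyte and oligodendrocyte genes gave the second large block on the hippocampus side. GFAP, the astrocyte filament, read 374, 596 and 643 CPM in hippocampus and had 1 lung read, 26800-fold (95% counting interval 4800 to 1060000) higher. The proteoglycan BCAN was at 794, 779.8 and 1063 CPM against 0.312, 0.0719 and 0.0533 CPM, a log2 fold change of -12.52 ± 0.35 (SE, n = 3 animals, adjusted p = 2.86e-06), and the glutamate transporter SLC1A2 was 626-fold higher. Of 18 astrocyte genes 15 were higher in hippocampus (median -4.02), and FGFR3 was higher in lung, 2.78-fold. In the refit to every-cell genes with ribosomal proteins FGFR3 was not called (log2 0.54). Oligodendrocyte genes were higher in hippocampus in 10 of 13. OLIG2, the lineage factor, read 92.8, 75.3 and 100.3 CPM with 1 lung read. MYRF, a myelin gene regulator that epithelia also express, was at 314, 294 and 292 CPM in lung and 14.6, 8.5 and 11.2 CPM in hippocampus, 26.7-fold higher in lung. CSPG4, shared by oligodendrocyte precursors and pericytes, was 1.76-fold higher in lung, and in the refits to every-cell genes its log2 fold change was 0.48 without ribosomal proteins and -0.11 with them, neither called. Of 8 microglia genes, 4 were called higher in hippocampus and 2 in lung, against 37.5% and 33.7% of all genes tested. Their median was -0.52. P2RY12, which sets microglia apart from other macrophages, read 50.2, 28.5 and 84.8 CPM against 3.75, 2.09 and 3.2 CPM. SALL1, a factor of microglia that neural progenitors also express, read 62.5, 53 and 71.6 CPM in hippocampus with no lung read.

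Genes listed as markers of tissue around the hippocampus were also read in those libraries. Of 11 genes of neighbouring regions, 6 were called higher in hippocampus and 5 restricted to it, while 4 were called higher in lung and 2 restricted to it, SLC6A3 and GATA3. Those on the hippocampus side included DRD1 of the striatum at 36.5, 24.4 and 27.9 CPM against 1.31, 1.15 and 1.28 CPM and SLC17A6, the glutamate carrier of thalamic neurons, at 162, 70.3 and 45.4 CPM with no lung read. Meningeal genes were higher in 6 of 9 and summed to 94.4 to 111 CPM in hippocampus. Of all genes tested, 37.5% were called higher in hippocampus and 8.10% were restricted to it. For lung these shares were 33.7% and 4.14%. Choroid plexus genes were low in both tissues, with sums of 37.6 to 108 CPM in hippocampus and 36 to 40.4 CPM in lung, and KL, a defining marker, was at 6.66, 11 and 12.3 CPM in hippocampus. Its call was lost without 15-101 (log2 -0.57, adjusted p = 0.23) and without 16-113 (log2 -0.79, adjusted p = 0.168). Whether these reads came from neighbouring tissue or from the hippocampus itself was not tested, nor was their part in the hippocampus calls.

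Genes of axons, myelin and transport were higher in hippocampus in 18 of 20 genes. KIF5A, a kinesin of fast axonal transport, was at 1340, 1333 and 1204 CPM against 0.188, 0.288 and 0.0533 CPM, 7490-fold higher, and DPYSL5 of the growth cone 13900-fold. Tubulins differed by isotype, TUBB2B, TUBB4A and TUBA1C at 576-fold, 2440-fold and 153-fold higher in hippocampus. TUBA1A, a main alpha tubulin of young neurons, was by these counts 78.8-fold higher in lung, at 546, 513 and 530.1 CPM against 6.84, 6.42 and 6.87 CPM. Alpha tubulin genes are nearly identical, so the reads of TUBA1A and TUBA1C may have been divided differently in the tables, and both values are uncertain. Neurotrophin genes moved less, with 8 of 11 higher in hippocampus (median -1.87). BDNF, which supports hippocampal synapses, was 4.11-fold and its receptor NTRK2 3.65-fold higher, the latter call lost without 15-101 (log2 -1.73, adjusted p = 0.0677). The sorting receptor SORT1 was at 84.4, 84.8 and 106 CPM in lung and 0.177, 0.37 and 0.237 CPM in hippocampus.

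Excitability and adhesion divided whole gene families. Of 59 potassium channel genes, 43 were called higher in hippocampus and 8 in lung. KCNC2, a fast channel of interneurons, read 149.7, 193 and 203 CPM in hippocampus with no lung read, and KCNK5, a pore channel of epithelia, 80.7, 65.6 and 28.9 CPM in lung against 0.825, 0.323 and 0.189 CPM. Voltage-gated sodium channels were higher in hippocampus in 8 of 9 and in lung in 0, with SCN2A at 499-fold, and calcium channels in 17 of 21. Synaptotagmins gave 13 of 15 to the hippocampus, and SYT8, at 5, 7.91 and 6.92 CPM in lung with no hippocampus read, and SYT15 to the lung. Protocadherins were higher in hippocampus in 12 of 16 and contactins in 9 of 10. Among classical cadherins, N-cadherin CDH2 was 75.9-fold higher in hippocampus and E-cadherin CDH1 22.6-fold higher in lung, and 13 of 23 were on the hippocampus side. Kinesins showed no common side, 13 of 34 higher in lung and 15 in hippocampus, against 33.7% and 37.5% of all genes tested. Their median was -0.24 with the every-cell families other than ribosomal proteins set to 0 and -0.83 with ribosomal proteins included. Of 15 tubulin genes 10 were higher in hippocampus.

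**Figure D3:**
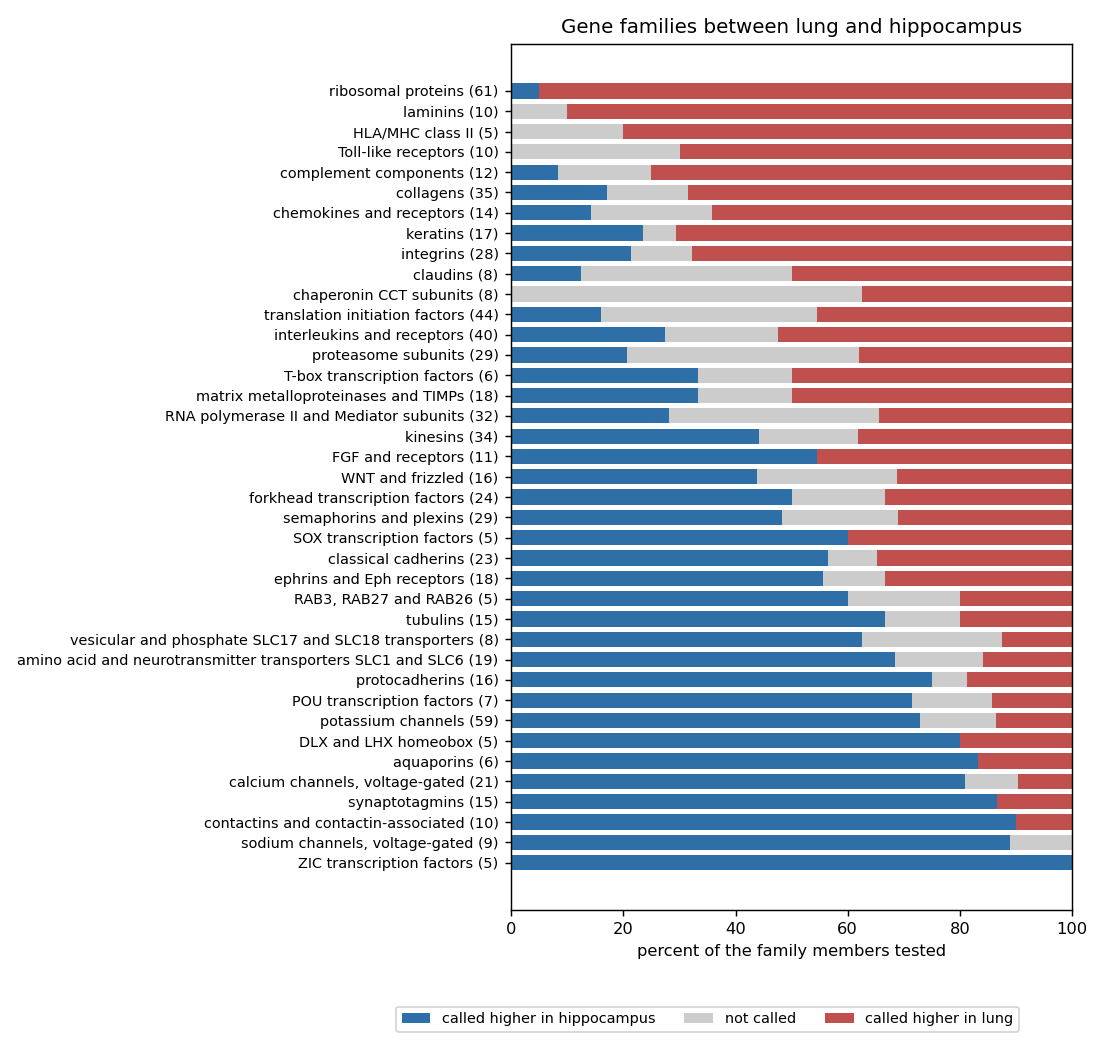
Each bar is a gene family, with its number of members tested, divided by the percent called higher in hippocampus, not called and called higher in lung. Laminins (9 of 10) and collagens (24 of 35) fall on the lung side, and ZIC factors (5 of 5) and voltage-gated sodium channels (8 of 9) on the hippocampus side. Of ribosomal proteins, 58 of 61 are on the lung side.

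Of 16 genes of isozyme pairs tested, 5 were called higher in lung and 10 in hippocampus, against 33.7% and 37.5% of all genes tested. Only some pairs divided between the tissues. Aldolase ALDOA was 4.51-fold higher in lung and the brain form ALDOC, at 591, 472 and 602 CPM against 14.8, 13.4 and 11.5 CPM, 41.9-fold higher in hippocampus. Hexokinase HK1 was 6.1-fold higher in hippocampus and HK2 1.76-fold higher in lung, and in the refits to every-cell genes HK2 was not called, at log2 0.48 without ribosomal proteins and -0.11 with them. Lactate dehydrogenase LDHA was 2.15-fold higher in lung, and was not called in the refit with ribosomal proteins, at log2 0.17. LDHB was on the same side, at 239, 375 and 169.8 CPM in lung and 3.24, 3.19 and 3.5 CPM in hippocampus. For its low hippocampus level, table, preparation and tissue cannot be told apart. Of 22 splicing regulators, 8 were called higher in lung and 11 in hippocampus, against 33.7% and 37.5% of all genes tested. Their median was -0.35. ESRP2, which drives epithelial exon choice, was 487-fold higher in lung and PTBP1, which blocks neuronal exons, 4.28-fold higher. RBFOX3, the neuronal nuclear antigen, was at 135.9, 140 and 109 CPM against 0.312, 0.216 and 0.106 CPM, and CELF5 had 1 lung read. PTBP2, the neuronal paralog of PTBP1, was 1.52-fold higher in hippocampus, and that call was lost without 15-92 (log2 -0.56). It was also lost over all 9 animals with both tissues, corticosteroid-treated ones included (log2 -0.49).

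Corticosteroid receptors, which the drugs of the series act on, also differed at baseline. The glucocorticoid receptor NR3C1 was at 77.9, 95.4 and 124 CPM in lung and 28.2, 25.5 and 31.1 CPM in hippocampus, 3.46-fold higher in lung. Its log2 fold change was 1.79 ± 0.14 (SE, n = 3 animals, adjusted p = 7.01e-05). The mineralocorticoid receptor NR3C2, which binds cortisol with high affinity in hippocampus, was at 9.31, 11.1 and 13.5 CPM and 55.7, 50.5 and 60.4 CPM, 4.94-fold higher in hippocampus. Its log2 fold change was -2.31 ± 0.13 (SE, n = 3 animals, adjusted p = 2.42e-05). HSD11B2, which inactivates cortisol, read 45.7, 45.8 and 45.5 CPM in lung against 0.472, 1.02 and 1.04 CPM, with a log2 fold change of 5.73 ± 0.24 (SE, n = 3 animals, adjusted p = 7.67e-06). The 3 libraries of each tissue did not overlap for any of them, as for 82.8% of all genes tested. FKBP5, a chaperone that the receptor induces, was not called, at 6.12, 5.54 and 6.07 CPM in lung and 3.54, 4.9 and 6.01 CPM in hippocampus. Of 12 genes in the list, 4 were called higher in lung and 5 in hippocampus, near the 33.7% and 37.5% of all genes tested.

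**Figure D4:**
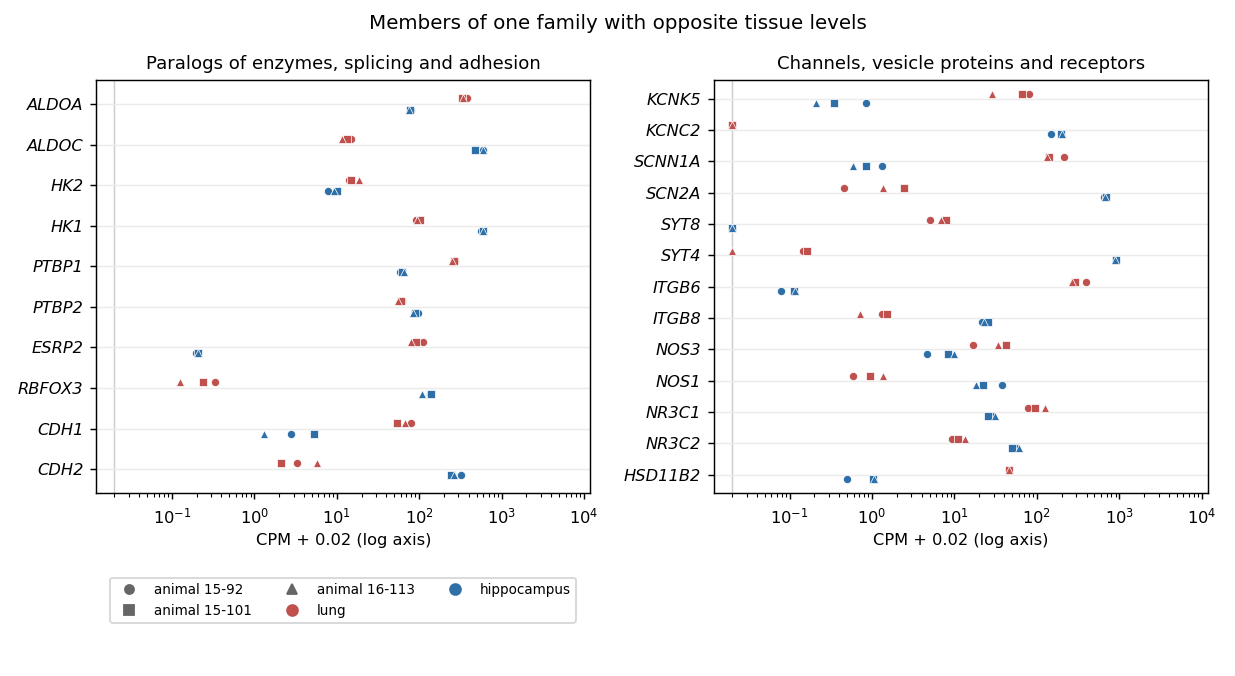
Points are libraries, with CPM plus 0.02 on a log axis, colour for tissue and shape for animal. Genes were chosen to show related members on opposite sides: NR3C1 was 77.9 to 124 CPM in lung and 25.5 to 31.1 CPM in hippocampus, and NR3C2 was 9.31 to 13.5 CPM in lung and 50.5 to 60.4 CPM in hippocampus.

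Of 21 cell cycle genes 14 were called higher in lung and 1 in hippocampus, against the 33.7% of all genes called higher in lung. Their median of 1.01 became 0.68 with the every-cell families other than ribosomal proteins set to 0 and 0.08 with ribosomal proteins included. The mitotic kinase CDK1 was at 24.6, 20.7 and 23.8 CPM in lung and 1.3, 1.11 and 1.37 CPM in hippocampus, 18.2-fold higher, TOP2A was 1.67-fold higher, a call lost without 16-113 (log2 0.57) and in both refits to every-cell genes (log2 0.41 without ribosomal proteins and -0.19 with them), and PLK1 was 4.33-fold higher in hippocampus. Nuclear subunits of oxidative phosphorylation gave 9 of 19 higher in lung and 4 in hippocampus, with a median of 0.49. SDHC, of complex II, stood apart at 74.5, 68.8 and 72.4 CPM in lung and 0.295, 0 and 0.0947 CPM in hippocampus, while SDHA of the same complex was not called, at 75.2, 75.7 and 75.4 CPM in lung and 108, 111 and 112 CPM in hippocampus.

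Animals differed within a tissue in genes of particular cell types, described here for genes chosen after their values were seen. In lung, 15-101 was highest for SCGB1A1, at 127 CPM against 27.8 and 2.82 CPM, and for DNAH5 at 2.44, 16 and 1.17 CPM, and lowest for the other club cell gene SCGB3A2. Red cell genes were highest in the same lung, SLC4A1 at 2.38, 18.1 and 0.799 CPM. In hippocampus, 15-92 stood above both others for the serotonin receptor HTR2C at 75, 8.55 and 13.8 CPM, SLC17A6 at 162, 70.3 and 45.4 CPM and LHX9, a thalamic factor, at 7.66, 0.878 and 0.994 CPM. The choroid plexus marker KL was lowest in 15-92, and HTR2C made up most of that animal's choroid plexus sum. Myelin genes were lowest in 15-101, the youngest by the labels, with MBP at 158, 30.0 and 99.5 CPM and MOG at 6.37, 1.11 and 5.21 CPM. A block of 37 consecutive identifiers without symbols took 1.02% of the lung reads of 15-92 and 0.75% of its hippocampus reads, against 4.91 to 5.58% and 7.37 to 8.71% in the other animals. The part of these differences in the calls was not tested beyond leaving animals out, and leaving the block out gave 4938 genes higher in lung and 5353 in hippocampus.

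**Figure D5:**
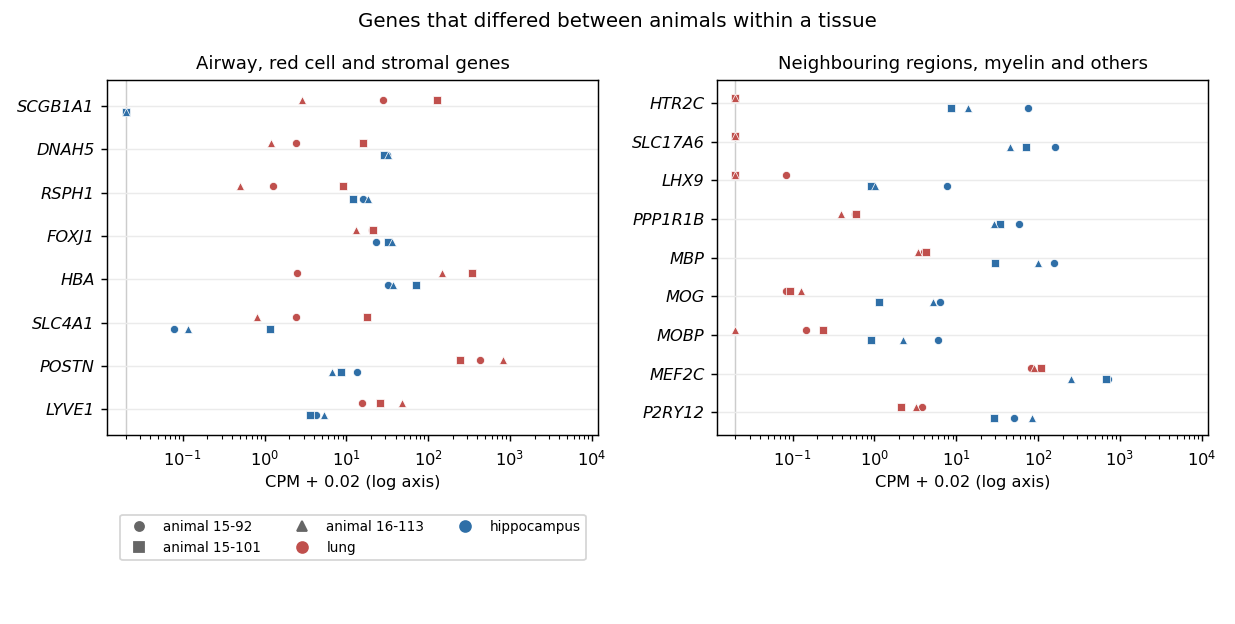
Points are libraries, with CPM plus 0.02 on a log axis, colour for tissue and shape for animal, for genes chosen because animals differed. SCGB1A1 spans 2.82 to 127 CPM over the 3 lungs and HTR2C spans 8.55 to 75 CPM over the 3 hippocampi.

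The same contrast was made in 6 other fetuses, whose mothers had received a corticosteroid 5 days before delivery. Both tissues of an animal shared its treatment, the clinical drug Celestone or betamethasone acetate, and the drugs were pooled here. The dose given with each drug in the lung labels is exchanged between the drugs in the hippocampus labels. Of 15057 genes tested 73.5% were called, 5541 higher in lung and 5533 higher in hippocampus. Of the 10260 genes called in saline animals and tested here, 9500 (92.6%) were called in the same direction, which is 89.7% of the treated calls among genes tested in both, and 3 were called in the opposite direction, CAPN9, KISS1R and an identifier without a symbol, named here for that difference. Of 1765 tissue-restricted genes 1764 were called on the same side. Tissue and table were confounded in these animals too, so the agreement does not tell tissue from table. ABCA3, called higher in hippocampus in saline animals, had a log2 fold change of 0.18 in treated animals and was not called. SFTPB was at 18.31 there and STMN2 at -13.50.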

How the data were processed

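RNA-seq was done on fetal lung and hippocampus of rhesus macaques. The authors deposited raw read counts per gene identifier, 1 table for each tissue. Per the labels, lung reads were aligned with Bowtie 1.2.1.1 and counted with featureCounts 1.5.1, and hippocampus reads were handled with Bowtie2 and featureCounts, after polyA selection. The study's methods name the MMUL1.0 genome, but the tables hold different identifier sets. Strand use in counting is not given in the sources used here, so overlapping and near-identical genes are uncertain.

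Identifiers in both tables were kept, and symbols came from a gene name table. Genes that reached 7 reads in 3 or more of the 6 libraries were fitted in edgeR 4.0.16 (R 4.3.3, limma 3.58.1) with trimmed-mean (TMM) normalization, the animal as a block and tissue as the tested term, by the quasi-likelihood test with Benjamini-Hochberg adjustment. A gene was called at a 1.5-fold difference, p below 0.05 and adjusted p below 0.1. Folds against a tissue with no read are lower bounds from a floor of 3 reads over the 3 libraries, and for 1 to 3 reads a ratio with its exact 95% interval is given. Intervals and floors cover counting error only. Library totals ran from 14.4 to 25.9 M reads.

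The numbers pair the samples because they name the animal. Deviations from the tissue means correlated at 0.207, 0.156 and 0.133 within an animal and at -0.137 to -0.001 between animals, over genes that are not independent. Each tissue has 3 animals. With the animal as a block, the p-values rest on how far the difference between the tissues varied from animal to animal. The estimate of that variation was partly shared across genes.

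The gene lists, families and the comparison itself were chosen with earlier results of these data known. Genes were named by rule: the 12 largest changes each way among called genes with a symbol, no overlap and a mean of at least 10 CPM; the first 2 listed and 3 largest called members of each list; the largest called members of each family; isozyme pairs; and members going against their list. Other list members named, the every-cell genes and the genes that differ between animals were chosen after their values were seen. Alternatives tried were other normalizations, filters, tests and folds, DESeq2 1.42.0, no block, other sets of animals and leaving out each animal, and the refits scaled to every-cell genes were added after seeing the data. Sequences and positions were not analysed here. Some items are not reported here.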

Additional observations from a re-analysis of the deposited data

Results flagged for a closer look

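Animal 15-92 stood apart from the other saline hippocampus libraries in 3 measures, by the gap to its nearest neighbour over the range of all 5. The block of consecutive identifiers without symbols took 0.75% of its reads, shared identifiers took 91%, and its total was 18.3 M reads. For a single measure, chance alone gives such a gap in about 1 group of 20. Several measures were checked in several groups of libraries, so chance was likelier than that to give a flag. Without this animal 9803 of the genes called with all 3 animals were called again.

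Reads also fell on identifiers found in only one table, which could not be compared between tissues. At least 7 reads in all 3 saline libraries were found for 2555 identifiers of the lung table, none of which had a symbol, and for 2817 of the hippocampus table, of which 793 had one.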

How the results depend on the processing

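Without the replicate block for the animal, 10260 genes were called, 4871 higher in lung and 5389 higher in hippocampus, and 10166 genes were called in both fits. The block changed the call of AQP3 (log2 -1.25 without it, adjusted p = 0.0865 by edgeR) and ZBTB20 (log2 -1.72, adjusted p = 0.0858) among 322 named genes. Requiring a 4-fold change left 5496 calls, 2444 higher in lung and 3052 higher in hippocampus. Requiring 7 reads in every library left 193 genes restricted to lung and 326 to hippocampus, since genes at 0 in one tissue were not tested. At 16-fold and 64-fold, 997 and 361 genes were restricted to lung. Scaled to the median of every-cell genes and refitted, chosen after seeing the data, 2907 genes were called higher in lung, 374 of them tissue-restricted, and 8370 higher in hippocampus. Without ribosomal proteins in that median the calls were 4018 and 6421. These refits moved the median of all genes by -0.931 and -0.335. The median of all genes moved by 0.159 on the log2 scale with total counts only and by 0.102 with upper quartile normalization. The 102 other counts stayed within 1.5 times the main count, those that leave out 1 animal included.

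Of 303 named genes called, 44 lost the call without changing sign under at least 1 alternative. Of these, 40 lost it when a 4-fold change was required, as any gene below that fold must. CLIC6, a chloride channel gene outside the 44, changed sign with all 5 hippocampus controls. There it was at -4.46 and not called (adjusted p = 0.156 by edgeR). Scaled to every-cell genes with ribosomal proteins, CSPG4 and HK2 were at -0.11, SHANK3 at -0.2 and TOP2A at -0.19, not called, and FLT1 (-0.88), LPCAT1 (-0.87) and PTCH1 (-0.66) were called higher in hippocampus. In that refit 9 other named genes kept their sign and lost the call, among them LDHA (0.17), VIM (0.37), FGFR3 (0.54) and CD3E (0.88). Without ribosomal proteins CSPG4 and HK2 were at 0.48, SHANK3 at 0.4 and TOP2A at 0.41, not called, and NES (-0.73), PFKL (-0.9), SDHA (-0.89) and THY1 (-0.79) were called higher in hippocampus. Over all 9 animals, corticosteroid-treated ones included, CAPN9 was at 0.21 and KISS1R at 0.24. Among genes with reads in every library the median of airway genes was -0.79 and that of keratins -3.4. Scaled to every-cell genes with ribosomal proteins, medians were -0.78 for airway genes, -0.18 for macrophage genes, -0.6 for lung fluid genes, -0.03 for matrix metalloproteinases and TIMPs, -0.83 for kinesins, -0.79 for proteasome subunits, -0.64 for RNA polymerase II and Mediator subunits and -0.84 for chaperonin subunits. Without ribosomal proteins the first 5 were -0.19, 0.41, -0.01, 0.57 and -0.24. The shifts in both refits follow from the scaling itself, and the cause of the others was not tested. Genes with few reads in both tissues were below the depth needed for a test.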

Other observations

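Guidance and signalling families, which the account above leaves aside, had members on both sides. So did all genes tested, with 33.7% called higher in lung and 37.5% in hippocampus. Of 29 semaphorins and plexins, which steer axons and vessels, 9 were called higher in lung and 14 in hippocampus. SEMA6A was at 113.0, 101.3 and 101.3 CPM in lung and 0.59, 0.185 and 0.237 CPM in hippocampus. Its relative SEMA6B was at 2.06, 2.37 and 2.72 CPM in lung and 178, 196 and 165 CPM in hippocampus. Neither overlapped, as for 82.8% of all genes tested. Of 18 ephrins and Eph receptors 6 were higher in lung, EFNA1 by 19.6-fold, and 10 in hippocampus, where EPHA6 read 30.5, 44.9 and 48.4 CPM with no lung read. FGF genes divided 5 to lung and 6 to hippocampus. FGF18, a growth factor of lung mesenchyme, had no hippocampus read against 7.87, 8.35 and 5.38 CPM, and FGF14, which binds neuronal sodium channels, was 110-fold higher in hippocampus. Of matrix metalloproteinases and their inhibitors 9 of 18 were higher in lung and 6 in hippocampus, with a median that was 0.57 with the every-cell families other than ribosomal proteins set to 0 and -0.03 with ribosomal proteins included. MMP7, an epithelial protease, was 7670-fold (95% counting interval 1380 to 303000) higher in lung, and the membrane protease MMP24 49.2-fold higher in hippocampus.

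Transporters of transmitters were on the hippocampus side in 13 of 19 genes of the SLC1 and SLC6 families. SLC17A7, the vesicular glutamate carrier of cortical neurons, was at 856, 973 and 1128 CPM in hippocampus and 0.312, 0.0719 and 0.426 CPM in lung. SLC6A4, the serotonin carrier that lung endothelium also uses, was at 17.1, 9.86 and 11.4 CPM in lung and 0.236, 0.323 and 0.0474 CPM in hippocampus, 60.6-fold higher in lung. Of 14 chemokine genes 9 were higher in lung, while CXCL14 was 18-fold higher in hippocampus. Some brain genes had identifiers in the hippocampus table only and so have no comparison. RELN, the secreted cue that layers cortex and hippocampus, was at 461, 516 and 636 CPM.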
